A study of Mus musculus with 6 samples.

Results

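Neurotransmitter release depends on a small set of proteins that draw synaptic vesicles to the presynaptic membrane and fuse them with it. In these data 9 genes of that set were followed in the dorsal hippocampus of mice after knockdown of the long non-coding RNA Snhg11. They are the synaptotagmins Syt1, Syt4, Syt7 and Syt11, the SNARE genes Snap25, Vamp2 and Stx1a, and the complexins Cplx1 and Cplx2. They were picked by name for their place in vesicle fusion, with earlier results of these data known. All 9 were among the 19969 genes tested, out of 55401 genes in the count files. Bulk RNA-seq had been made from 3 WT mice that received a control antisense oligonucleotide (Control-ASO) and 3 WT mice that received one against Snhg11 (Snhg11-ASO), the latter labelled Snhg11 KD. The animals were wild-type littermates of the Ts65Dn mouse model of Down syndrome, and by the study's account the dorsal hippocampal RNA came from male mice. They were injected at 4 months of age with 50 µg of ASO in each hemisphere of the dorsal dentate gyrus (DG), and the dorsal part of the hippocampus was taken 3 days later. Control-ASO is a gapmer with a scrambled sequence, and Snhg11-ASO is directed to exon 5 of Snhg11 and acts through RNase H. The tissue holds CA fields and glia as well as the injected DG, and both groups had the surgery and an ASO.

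SNAP-25 and syntaxin-1A, on the plasma membrane, and VAMP2 (synaptobrevin-2), on the vesicle, zip into a bundle of helices, the SNARE complex, that pulls the membranes together. Complexins bind the assembled bundle and both hold back spontaneous fusion and prime vesicles for release. Synaptotagmins are membrane proteins with domains that in some of them bind calcium. Synaptotagmin-1 is the fast calcium sensor of forebrain synapses, synaptotagmin-7 a slower sensor of high affinity, and synaptotagmins 4 and 11 lack residues needed to bind calcium in the usual way.

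The 6 libraries held 28951250 to 43997537 counts on genes. The library of Snhg11-ASO replicate 1 stood apart, with a Spearman correlation across genes of 0.955 to 0.960 with each other library against 0.979 to 0.991 among the rest, so values without it are given for the marker lists and for each named member or relative whose overlap between groups it changed. Genes in those correlations are not independent replicates. Snhg11 itself was counted at 551, 436 and 209 CPM (counts per 1000000 counts of the library, scaled with TMM factors) in Control-ASO and at 139, 65.4 and 69.4 CPM in Snhg11-ASO, with no overlap between the groups. No gene passed an adjusted p of 0.05 (Benjamini-Hochberg) in the quasi-likelihood test of edgeR (0 of 19969, or 0%), while 1619 had an unadjusted p under 0.05 and DESeq2 called 251 of 18570 genes (1.35%). Snhg11 had an adjusted p of 0.395 in edgeR and of 3.8e-05 in DESeq2. All values below compare Snhg11-ASO with Control-ASO, fold changes are on the log2 scale, and p-values measure the spread between these 3 and 3 samples.

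Of the 9 members, Syt1, Stx1a and Cplx1 had lower counts in every Snhg11-ASO sample than in any Control-ASO sample, with means of 80.2%, 73.8% and 84.9% of control. None of the 9 passed the adjusted threshold in edgeR or in DESeq2. The 3 genes were also the only members with an unadjusted edgeR p under 0.05. Over all genes tested, 7.70% lay lower without overlap and 4.43% had an unadjusted p under 0.05 and a lower level. The 3 of 9 is above both shares, but the group is too small to say more. It was also chosen with earlier results of these data known. No member lay higher without overlap or at an unadjusted p under 0.05, against 7.73% and 3.68% of all genes. The other 6 members, Syt4, Syt7, Syt11, Snap25, Vamp2 and Cplx2, overlapped between the groups. Without Snhg11-ASO replicate 1, and so among fewer samples, Vamp2 was also lower without overlap and Syt11 higher, which made 4 lower and 1 higher, where 13.5% of all genes were lower and 14.7% higher without overlap. The median log2 fold change of the 9 members was -0.03 and that of all genes tested 0.01. In bulk tissue, fewer cells of a type and less RNA per cell cannot be told apart.

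**Figure D1:**
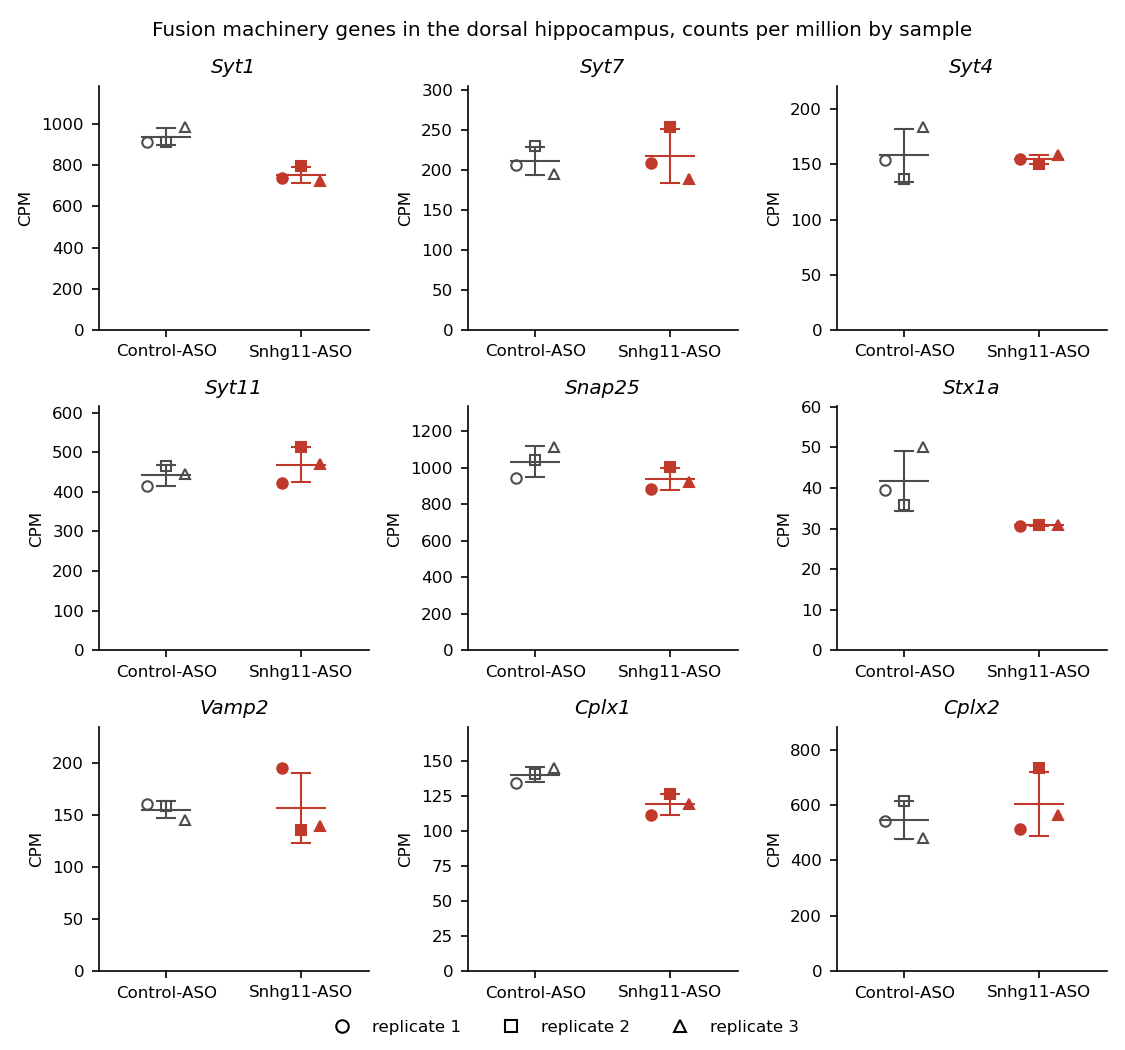
CPM of the 9 members in each sample, with 1 panel per gene and each y axis starting at 0. Open grey symbols are Control-ASO, filled red symbols Snhg11-ASO, the symbol shape is the replicate number, and bars are the mean ± SD of 3 samples. Syt1, Stx1a and Cplx1 are the panels in which the groups do not overlap.

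Among the calcium sensors, Syt1 (ENSMUSG00000035864) lies on the minus strand of chromosome 10, from 108497650 to 109010982 of GRCm38 (mm10), and is the longest of the members, with a span of 513 kb. Its levels in Control-ASO were 915, 913 and 987 CPM and those in Snhg11-ASO were 737, 796 and 725 CPM, each in the order of replicates 1, 2 and 3, as for all genes below. All Snhg11-ASO samples were low, and the groups were 116 CPM apart at their nearest samples. The mean was 938 ± 42.3 (SD, n = 3) CPM in Control-ASO and 752 ± 38.3 (SD, n = 3) CPM in Snhg11-ASO, or 80.2% of control. The log2 fold change was -0.32 (standard error 0.10, 95% interval -0.55 to -0.09), with an unadjusted p of 0.0135 and an adjusted p of 0.528 in edgeR and of 0.134 in DESeq2. The exact two-sided permutation test gave p = 0.1, the smallest that 3 samples against 3 allow. Genomic span was read beside this result. Genes with a span over 300 kb, 558 in all and Syt1 the only member among them, had a median log2 fold change of -0.23, against 0.04 for the 5232 genes of 10 to 30 kb. After each sample's trend of log2 CPM with span was removed, the log2 fold change of Syt1 was -0.11 (unadjusted p = 0.271 in edgeR). Those of Stx1a and Cplx1 were -0.46 and -0.26. A part of span in these differences was not tested.

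Syt7 (ENSMUSG00000024743, chromosome 19, 10389090 to 10453180, plus strand) was counted at 207, 229.95 and 196 CPM in Control-ASO and at 209, 254 and 189 CPM in Snhg11-ASO. Replicate 2 was the highest sample of either group and replicate 3 the lowest, and the groups overlapped. The log2 fold change was 0.04 with a 95% interval of -0.27 to 0.36, which leaves room for a change of 0.831-fold to 1.28-fold. Syt4 (ENSMUSG00000024261, minus strand of chromosome 18), which in neurons is carried largely on dense-core vesicles, was counted at 154, 137 and 184 CPM in Control-ASO and at 155, 150.2 and 158 CPM in Snhg11-ASO. The 3 Snhg11-ASO samples lay within the wider Control-ASO range, and the log2 fold change was -0.03 (95% interval -0.32 to 0.25). Syt11 (ENSMUSG00000068923, chromosome 3, 88744700 to 88775164, minus strand), a synaptotagmin linked to vesicle retrieval, was counted at 414, 466 and 445 CPM in Control-ASO and at 423, 513 and 469.7 CPM in Snhg11-ASO. Its log2 fold change was 0.08 (95% interval -0.17 to 0.34), and without Snhg11-ASO replicate 1 it was 0.15 and the remaining Snhg11-ASO samples lay above all Control-ASO samples. The adjusted p-values in edgeR were 0.945 for Syt7, 0.955 for Syt4 and 0.855 for Syt11.

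Among the SNARE genes, Stx1a (ENSMUSG00000007207, chromosome 5, 135023482 to 135051100, plus strand), which encodes syntaxin-1A, had the largest difference of the 9 members. It was counted at 39.4, 35.8 and 50.05 CPM in Control-ASO and at 30.7, 30.8 and 30.9 CPM in Snhg11-ASO, on 1159 to 1686 counts per library. The Snhg11-ASO samples were almost equal, while Control-ASO replicate 3 was well above the other two controls. The spread of the Snhg11-ASO samples, 0.117 CPM (SD, n = 3), was below the 0.866 CPM that counting error alone gives on average at this depth, so it understates the error of their mean. The mean was 41.7 ± 7.43 (SD, n = 3) CPM in Control-ASO and 30.8 CPM in Snhg11-ASO, or 73.8% of control. The log2 fold change was -0.44 (standard error 0.14, 95% interval -0.77 to -0.11), with an unadjusted p of 0.016 and an adjusted p of 0.535 in edgeR and of 0.237 in DESeq2. Without Control-ASO replicate 3 it was -0.29.

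Snap25 (ENSMUSG00000027273, chromosome 2, 136713453 to 136782428, plus strand), the plasma membrane partner of syntaxin-1A, was counted at 943, 1042 and 1113 CPM in Control-ASO and at 884, 1003 and 923 CPM in Snhg11-ASO. Snhg11-ASO replicate 2 lay inside the Control-ASO range and the other Snhg11-ASO samples below it. The log2 fold change was -0.14 (95% interval -0.40 to 0.12, adjusted p = 0.771 in edgeR). Vamp2 (ENSMUSG00000020894, chromosome 11, 69088490 to 69092384, plus strand), the vesicle SNARE, was counted at 161, 159 and 145 CPM in Control-ASO and at 195, 135 and 139 CPM in Snhg11-ASO. A single library, Snhg11-ASO replicate 1, decided its value. With that library the log2 fold change was 0.01 (95% interval -0.35 to 0.38), and without it -0.18, with the remaining Snhg11-ASO samples below every Control-ASO sample.

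The complexins differed in whether their groups overlapped. Cplx1 (ENSMUSG00000033615, chromosome 5, 108518554 to 108550024, minus strand) was counted at 135, 141 and 145 CPM in Control-ASO and at 111, 126 and 119.6 CPM in Snhg11-ASO. The groups did not overlap, with 8.26 CPM between their nearest samples. The mean was 140.3 ± 5.35 (SD, n = 3) CPM in Control-ASO and 119 ± 7.55 (SD, n = 3) CPM in Snhg11-ASO, or 84.9% of control. The log2 fold change was -0.24 (standard error 0.09, 95% interval -0.44 to -0.03), with an unadjusted p of 0.0286 and an adjusted p of 0.567 in edgeR and of 0.489 in DESeq2. Cplx2 (ENSMUSG00000025867, chromosome 13, 54371349 to 54383917, plus strand) was counted at 543, 615 and 479 CPM in Control-ASO and at 514, 735 and 565 CPM in Snhg11-ASO. Replicate 2 was the highest in both groups, the groups overlapped, and the log2 fold change was 0.15 (95% interval -0.24 to 0.54, adjusted p = 0.836 in edgeR). Without Snhg11-ASO replicate 2 it was -0.02.

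**Figure D2:**
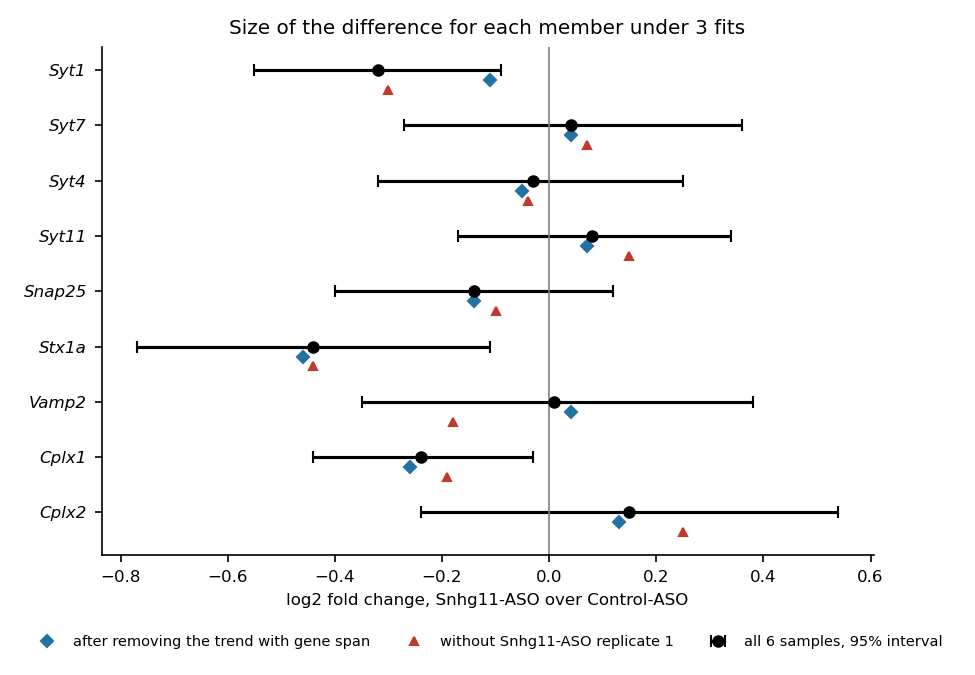
Log2 fold change of Snhg11-ASO over Control-ASO for each member. Black circles with bars are the values with their 95% intervals over all 6 samples, blue diamonds the values after the trend with gene span was removed, and red triangles those without Snhg11-ASO replicate 1. The diamond of Syt1 sits at -0.11, to the right of its circle at -0.32, and the triangle of Vamp2 at -0.18.

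The promoters of Syt1, Stx1a and Cplx1 are printed because these are the members whose groups did not overlap. They are RefSeq sequences on GRCm38.p6, in 5′ to 3′ direction from 250 bases before to 50 bases after the annotated start. Capitals mark GC boxes, the letters GGGCGG on either strand. The Syt1 window is chr10:109010926-109011225 on the minus strand, the one of 2 listed for Syt1 that is nearest to the start used for counting. The Stx1a window is chr5:135023232-135023531 on the plus strand, and the Cplx1 window is chr5:108549978-108550277 on the minus strand.
Syt1 promoter: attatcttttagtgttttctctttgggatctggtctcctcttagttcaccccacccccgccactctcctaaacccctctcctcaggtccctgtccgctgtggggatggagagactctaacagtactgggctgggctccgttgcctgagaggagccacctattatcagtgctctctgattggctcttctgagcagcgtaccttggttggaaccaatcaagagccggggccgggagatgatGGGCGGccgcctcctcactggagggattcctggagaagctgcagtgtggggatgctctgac
Stx1a promoter: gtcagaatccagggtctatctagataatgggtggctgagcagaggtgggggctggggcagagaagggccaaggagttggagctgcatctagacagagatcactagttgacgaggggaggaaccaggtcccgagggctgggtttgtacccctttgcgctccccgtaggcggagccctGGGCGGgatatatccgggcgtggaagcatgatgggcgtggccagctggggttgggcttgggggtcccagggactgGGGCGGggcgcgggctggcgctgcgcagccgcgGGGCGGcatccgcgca
Cplx1 promoter: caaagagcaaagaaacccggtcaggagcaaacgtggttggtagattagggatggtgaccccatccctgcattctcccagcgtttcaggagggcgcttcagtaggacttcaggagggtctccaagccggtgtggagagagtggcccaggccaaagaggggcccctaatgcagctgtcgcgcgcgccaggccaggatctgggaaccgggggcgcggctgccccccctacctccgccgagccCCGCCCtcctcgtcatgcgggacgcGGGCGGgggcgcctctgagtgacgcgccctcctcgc
The GC content of these windows was 56.7% for Syt1, 66.3% for Stx1a and 67.0% for Cplx1, against a median of 52.7% over all 32851 promoters of the same length. GGGCGG was found at 1 place in the Syt1 window, 3 in that of Stx1a and 2 in that of Cplx1, and in 35.7% of all promoters. Of the other strings searched on both strands, none of which contains another, TGACGTCA (the cAMP response element) and TATAAA were in none of these windows and in 1.79% and 13.6% of all promoters. CCAAT was at 2 places in the Syt1 window and in 37.4% of all promoters. Promoters were read for 5 of the 9 members. The windows of Syt11 and Cplx2 lie 2565 and 68793 bases from the start used for counting and were not compared.

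On a scale that allows genes to be compared, CPM per kb of merged exons, the Control-ASO means ran from 152 for Snap25 to 15.7 for Stx1a. In between stood Syt1 at 112.5, Cplx2 at 111, Syt11 at 84.9, Cplx1 at 64.1, Syt4 and Vamp2 at 40.7 each, and Syt7 at 28.1 CPM per kb. Neighbours in this order did not overlap in the Control-ASO samples, with the exception of Syt1 with Cplx2 and of Syt4 with Vamp2, which did not differ beyond their spread. In Snhg11-ASO the means of Syt1 and Cplx2 were 90.2 ± 4.60 and 123 ± 23.5 (SD, n = 3) CPM per kb. Divided by the longest annotated transcript instead, the Control-ASO means were 212 for Snap25, 195 for Syt1 and 70.2 for Vamp2, which then ranked above Cplx1. Those of Syt7 and Stx1a were 31.8 and 19.3. Cplx2 and Syt4 stayed at 111 and 40.7, so by this length Syt1 had a higher mean than Cplx2, and Vamp2 than Syt4. Syt4 read 30.2 CPM per kb from counts of both strands.

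**Figure D3:**
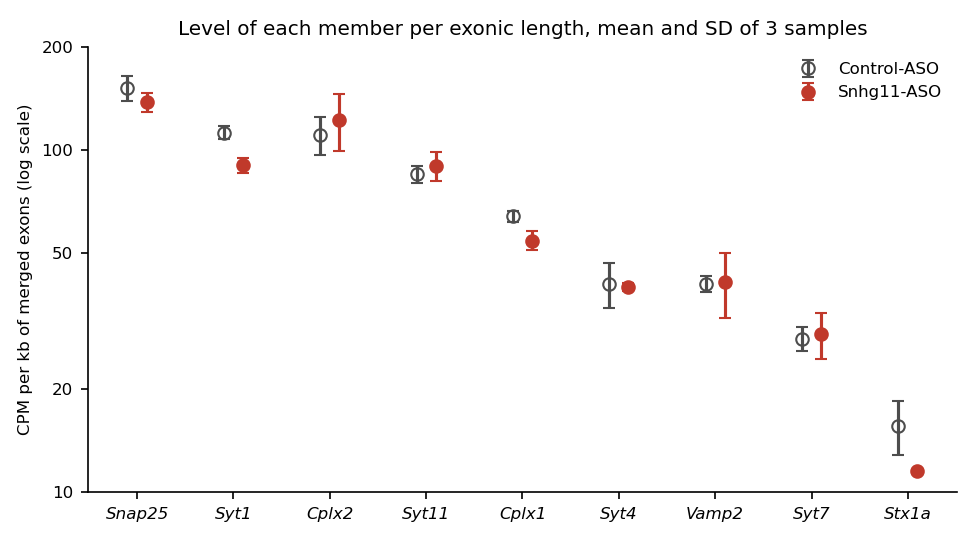
Level of each member in CPM per kb of merged exons, on a log axis, in the order of the Control-ASO means. Circles are means and bars the SD of 3 samples, open grey for Control-ASO and filled red for Snhg11-ASO. The levels fall from 152 for Snap25 to 15.7 for Stx1a in Control-ASO.

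Ratios within a sample do not depend on how libraries are scaled, so close relatives and partners were compared as the log2 ratio of their CPM, for 7 pairs, of which 6 are given. The ratio of Cplx1 to Cplx2 was -2.01, -2.12 and -1.72 in Control-ASO, against -2.21, -2.54 and -2.24 in Snhg11-ASO. Each Snhg11-ASO sample was lower than any Control-ASO sample, and the means differed by -0.38 on the log2 scale. The ratio of Syt1 to Syt7 was 2.15, 1.99 and 2.34 in Control-ASO, against 1.82, 1.65 and 1.94 in Snhg11-ASO, again without overlap and with a difference of -0.35. For both pairs the exact two-sided permutation test gave p = 0.1, the smallest possible, and 0.35 after Benjamini-Hochberg adjustment over the 7 pairs. Snap25 to Stx1a differed by 0.28 (exact permutation p = 0.2). Vamp2 to Vamp1, Syt4 to Syt11 and Syt1 to Syt2 differed by 0.07, -0.11 and 0.13, with exact permutation p-values of 0.6, 0.5 and 0.9. With 1 sample left out, Cplx1 to Cplx2 ran from -0.46 to -0.26, Syt1 to Syt7 from -0.44 to -0.26 and Snap25 to Stx1a from 0.20 to 0.40. Single libraries decided the others. Syt1 to Syt2 was 0.47 without Snhg11-ASO replicate 1 and -0.18 without Snhg11-ASO replicate 2, Vamp2 to Vamp1 was -0.01 without Control-ASO replicate 3 and 0.15 without Control-ASO replicate 1, and Syt4 to Syt11 was -0.25 without Control-ASO replicate 2 and 0.0 without Control-ASO replicate 3.

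**Figure D4:**
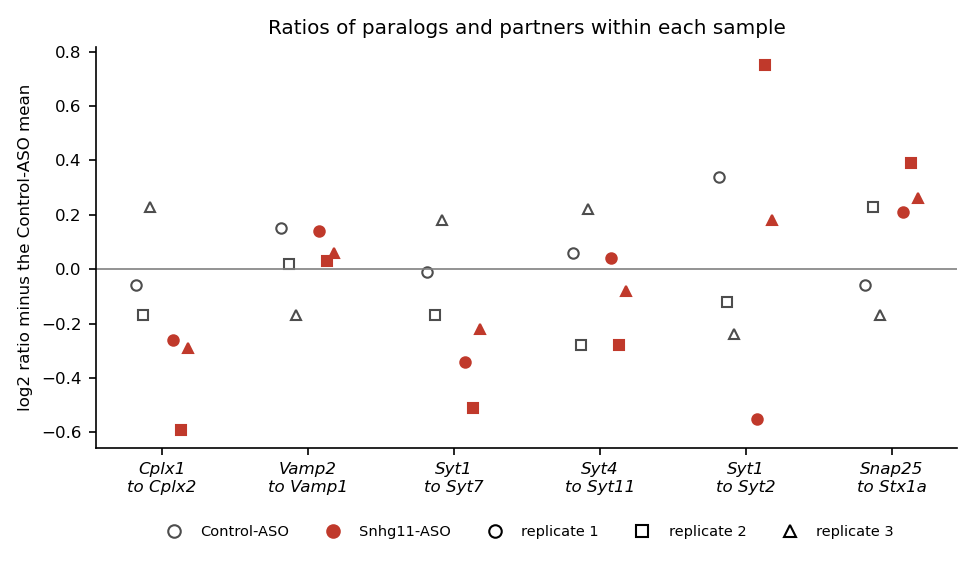
Log2 ratio of 6 gene pairs in each sample, minus the Control-ASO mean of that pair. Open grey symbols are Control-ASO, filled red symbols Snhg11-ASO, and the symbol shape is the replicate number. The Snhg11-ASO symbols lie below all Control-ASO symbols for Cplx1 to Cplx2 and Syt1 to Syt7.

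A ratio of paralogs can be read only if reads of 50 bases tell them apart. The stretches of 50 coding bases in which Cplx1 and Cplx2 are most alike are printed, with the bases that differ in capitals. The Cplx1 stretch lies on the minus strand within chr5:108525543-108548530 and crosses an intron, and that of Cplx2 within chr13:54378675-54378836 on the plus strand also does so. Positions are GRCm38, the sequences those of the GENCODE M21 transcripts Cplx1-201 and Cplx2-201.
Cplx1: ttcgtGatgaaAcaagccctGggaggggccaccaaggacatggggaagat
Cplx2: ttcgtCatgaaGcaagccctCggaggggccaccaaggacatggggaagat
In this closest stretch Cplx1 and Cplx2 differed at 3 of 50 bases, and their longest identical run over the coding sequences was 32 bases. No stretch of 50 bases of Syt1, Stx1a, Cplx1 or Vamp2 was shared with a transcript of another gene. Shared stretches made up 10.9% of those of Syt4, 5.92% for Syt11, 4.25% for Syt7, 2.12% for Cplx2 and 0.221% for Snap25. For Syt4 and Syt7 they came from the opposite-strand genes Gm26658 and Gm26859. When counts of both strands were used, Syt4 kept 71.7% to 74.0% of its counts. The strand-aware counts used here do not lose reads to such overlaps, and counts on the strand opposite to each member were at most 0.694% of its own.

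The wider pathway was read from 5 lists of genes, in none of which a gene passed the adjusted threshold in edgeR or DESeq2. Over all genes tested, 9653 of 19969 were lower and 10316 higher. At an unadjusted p under 0.05 in edgeR, 4.43% of all genes were lower and 3.68% higher. Of the other synaptotagmins, 12 of 13 were tested (Syt8 was too low), 11 had a lower and 1 a higher mean, and the median log2 fold change was -0.23 against 0.01 for all genes. It was -0.14 with counts of both strands. Syt9, Syt16 and Syt17 had an unadjusted p under 0.05, all lower. Syt9 was low, at 1.89 to 6.49 CPM, and its groups overlapped. Syt17 was counted at 59.7, 30.5 and 36.1 CPM in Control-ASO and 23.7, 28.8 and 28.6 CPM in Snhg11-ASO. Syt16 spans 276 kb, and its log2 fold change of -0.35 was -0.22 after the trend with span was removed. A part of span in it was not tested. Syt2, the fast sensor of hindbrain synapses, was counted at 20.6, 28.2 and 33.3 CPM in Control-ASO and 30.8, 13.5 and 18.2 CPM in Snhg11-ASO. The groups overlapped only through Snhg11-ASO replicate 1, and its log2 fold change of -0.39 was -0.79 without that library, with the groups apart. Syt3 and Syt5 had log2 fold changes of -0.19 and -0.08.

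Of the other plasma membrane and vesicle SNAREs and complexins, 12 of 14 were tested, with 4 lower and 8 higher and a median of 0.12, which was -0.02 without Snhg11-ASO replicate 1. Vamp8 was the one gene at an unadjusted p under 0.05, and higher. The SNAP-25 relatives Snap23, Snap29 and Snap47 had log2 fold changes of 0.16, 0.07 and -0.13, and the VAMP2 relatives Vamp1 and Vamp3 of -0.07 and 0.26. Without Snhg11-ASO replicate 1, Vamp1 was at -0.22 and lower without overlap, and Snap29 at 0.19 and higher without overlap. Vamp3, which serves constitutive fusion, was counted at 18.7, 22.8 and 19.5 CPM in Control-ASO and 24.8, 23.1 and 25.1 CPM in Snhg11-ASO, higher without overlap. Cplx3, a complexin best known from the retina, was low throughout, at 2.14, 1.58 and 4.93 CPM in Control-ASO and 0.970, 0.598 and 1.92 CPM in Snhg11-ASO, which overlapped.

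The factors that assemble, prime and take apart the SNARE complex were all tested, with 16 of 24 lower and 8 higher and a median of -0.06. Of these, 5 had an unadjusted p under 0.05, all lower: Doc2a, Rab3b, Rab3c, Cadps and Cadps2. The share of all genes lower at that p was 4.43%. Doc2a, a calcium sensor of spontaneous and asynchronous release, was counted at 8.23, 7.40 and 11.4 CPM in Control-ASO and 4.17, 5.96 and 6.41 CPM in Snhg11-ASO, lower without overlap. The log2 fold change of Doc2a was -0.71, with a standard error of 0.24 and an adjusted p of 0.551 in edgeR. Its relative Doc2b had 0.19. Unc13a (Munc13-1), the priming factor, had a log2 fold change of -0.13. The ATPase Nsf, which takes spent SNARE complexes apart, was counted at 765, 728 and 715 CPM in Control-ASO and 745, 760.4 and 702 CPM in Snhg11-ASO. Its partner Napb (beta-SNAP) had -0.07, the SNAP-25 chaperone Dnajc5 0.02 and the Rab3 effector Rph3a 0.16, which was 0.20 and higher without overlap when Snhg11-ASO replicate 1 was left out. Cadps and Cadps2 span 451 and 577 kb, and their log2 fold changes of -0.30 and -0.41 were -0.12 and -0.18 after the trend with span was removed. Doc2a, at 5.29 kb, was at -0.71 before and after. A part of span in these values was not tested.

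The 18 SNAREs of intracellular trafficking, with 8 lower and 10 higher, had a median of 0.02, with Vti1a at an unadjusted p under 0.05 and lower. The 17 vesicle proteins outside the fusion complex, with 13 lower and 4 higher, had a median of -0.04. Syn3 had an unadjusted p under 0.05 and was lower. Without Snhg11-ASO replicate 1, 9 of these 17 were lower and 8 higher, with a median of -0.02. Vti1a and Syn3 span 311 and 444 kb. Their log2 fold changes of -0.55 and -0.37 were -0.41 and -0.19 after the trend with span was removed. A part of span in these values was not tested. Syp (synaptophysin) was counted at 658, 661 and 676 CPM in Control-ASO and 588, 647 and 666 CPM in Snhg11-ASO. Syn1 (synapsin I) had a log2 fold change of -0.13 with overlap that came from Snhg11-ASO replicate 1 alone, and of -0.32 without that library, with the groups apart.

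**Figure D5:**
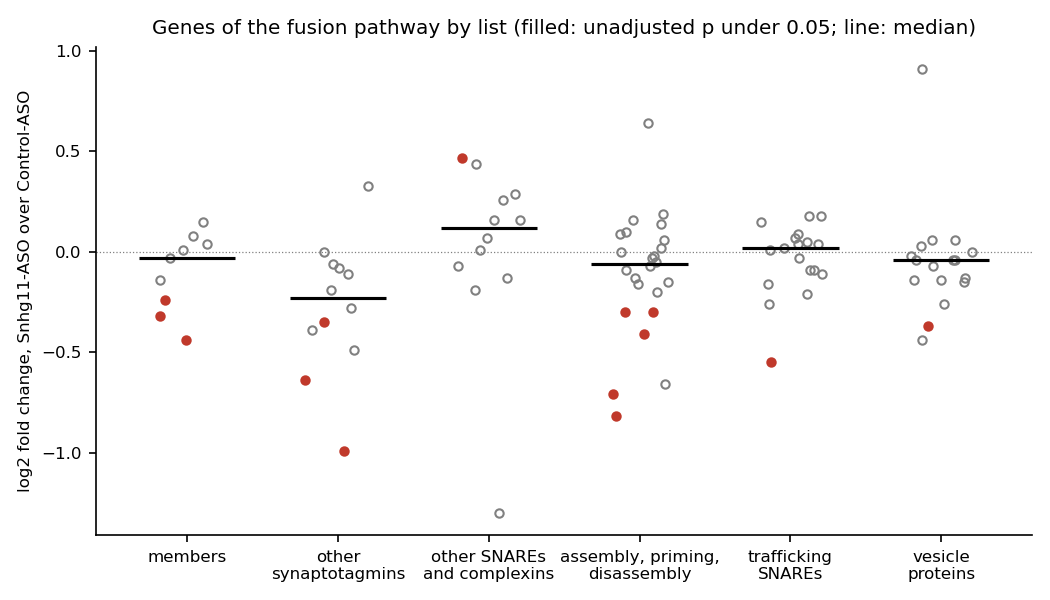
Log2 fold changes of the 9 members and of the genes of 5 lists from the same pathway, 1 circle per gene tested. Filled red circles have an unadjusted p under 0.05 in edgeR, and black lines are medians. The medians run from -0.23 for the other synaptotagmins to 0.12 for the other SNAREs and complexins, and no circle passed the adjusted threshold.

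The genes most like the 3 members with the largest differences were sought among 9803 genes of at least 10 CPM, by the root mean square difference of log2 CPM over the 6 samples, each gene centred on its own mean. For Stx1a these were Isyna1 (0.0528) and Dlg1 (0.0556), where the median of all candidates was 0.304. For Syt1 they were Usp15 (0.0302) and Ate1 (0.0372), with a median of 0.234, and for Cplx1 Mta3 (0.0206) and Ppp1r16a (0.0214), with a median of 0.208. Dlg1, a synaptic scaffold protein, was counted at 114, 103 and 151 CPM in Control-ASO and 98.9, 95.2 and 91.9 CPM in Snhg11-ASO, with the same high Control-ASO replicate 3 as Stx1a. The search ranks genes by their profile over these same samples, so such likeness, and values far below the median, follow from the selection.

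Cell type markers were read beside these values. Over all genes tested, 9653 of 19969 were lower and 10316 higher, and 4.43% were lower at an unadjusted p under 0.05. All 12 neuron markers were present in every library. Their summed level was 3712 to 3893 CPM in Control-ASO and 3114 to 3938 CPM in Snhg11-ASO, 10 of 12 were lower, and the median log2 fold change was -0.08. Single neuron markers ran from -0.51, for Tubb3, to 0.05, and Tubb3 and Nefh (-0.38) had an unadjusted p under 0.05. Without Snhg11-ASO replicate 1 the median of the neuron markers was 0.01, with 5 of 12 lower. Oligodendrocyte markers were higher in 8 of 8, with a median of 0.23 and summed levels of 1568 to 2875 CPM in Control-ASO and 1648 to 3542 CPM in Snhg11-ASO. Choroid plexus markers were lower in 8 of 8, with a median of -0.70, and varied widely within each group, from 36.7 to 1911 CPM in Control-ASO and from 68.7 to 1316 CPM in Snhg11-ASO. Oligodendrocyte precursor markers summed to 113 to 123 CPM in Control-ASO and 61.9 to 112 CPM in Snhg11-ASO, with 4 of 4 lower. The median log2 fold change was -0.52 for these precursor markers, -0.23 for inhibitory neuron markers (summed level 543 to 587 CPM in Control-ASO and 464 to 561 CPM in Snhg11-ASO), -0.03 for microglia, 0.09 for endothelial and mural cells, 0.56 for ependymal cells, and 0.0 for excitatory neurons and astrocytes. Without Snhg11-ASO replicate 1 the medians were 0.57 for oligodendrocyte, -0.28 for precursor, -2.86 for choroid plexus, -0.23 for inhibitory neuron, 0.14 for excitatory neuron, 0.29 for astrocyte, 0.25 for microglia, 0.02 for endothelial and mural cell and 0.87 for ependymal markers. No gene of these lists passed the adjusted threshold in edgeR or DESeq2. Their part in the differences of the members was not tested.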

How the data were processed

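Total RNA of the dorsal hippocampus of 6 mice was ribo-depleted and sequenced as strand-specific read pairs of 50 bases. The authors used STAR 2.5.2a with the mm10 genome, and the deposited values are raw counts of read pairs on each gene, not normalized, with 1 file per sample. Rsubread is named as the counter in the methods of the study, but the files have the layout of STAR's own gene counts. They also say that 1 Snhg11-ASO sample, not named, was removed, so each was left out in turn here and all 3 were kept in the values reported. Summary lines that name no gene held 43.5% to 51.4% of the pairs and were left out.

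Counts of the strand that the library kit predicts were used (96.2% to 96.8% of counts on genes with a strand). Of 55401 gene identifiers, 55141 matched GENCODE M21 (GRCm38), from which names, positions and lengths came. Genes were filtered with filterByExpr (minimum count 10), scaled with TMM factors (0.982 to 1.02) and compared with the quasi-likelihood test of edgeR 4.0.16 (R 4.3.3) with Benjamini-Hochberg adjustment at 0.05. The common biological coefficient of variation was 0.266. Standard errors are the fold change over the square root of its F statistic. DESeq2 1.42.0, limma-voom (limma 3.58.1), other scaling factors, filters and strand, offsets without the trend with span or GC content, a replicate block and leaving out each sample were alternatives. Two-sided exact permutation tests were run with SciPy 1.17.1. Libraries of different size give different precision, and p-values cover the spread between samples, each from 1 mouse by the methods.

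The members, lists and tests were chosen with earlier results of these data known. Named genes are all members, Snhg11, close relatives and partners set by name (some of them, and a ratio with one, are not reported here, though all enter the counts), and the 2 most similar genes of each of 3 members. Other genes are named because their count was small and after their values were seen. Samples share the replicate numbers 1, 2 and 3. The deviation from the group mean, across genes, had a correlation of 0.297, 0.179 and 0.103 between samples of the same number. Each exceeds 0.1, but no source says what a number marks. The reported fits and permutation tests were unpaired, and a replicate block was an alternative. Control-ASO 2 and Snhg11-ASO 3 correlated at 0.188. Promoters are from RefSeq. The ASO sequences were not used here.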

Additional observations from a re-analysis of the deposited data

Results flagged for a closer look

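Syt11 had a mean of 0.648 CPM on the strand opposite to the gene in Snhg11-ASO, above the 0.468 of Control-ASO. These counts are outside those compared in the report. They were 14, 16 and 15 in Control-ASO, and in the Snhg11-ASO samples 21, 32 and 28. The strand of Syt11 itself had 12186 to 21424 counts. The opposite strand held 0.0999% to 0.149% of the counts of both strands for Syt11, and up to 0.694% for Stx1a. How many other genes differ in this way was not examined.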

How the results depend on the processing

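Of 189 results of the 9 members under 21 alternatives, 173 kept their direction, 16 reversed and 0 passed the adjusted threshold. Every reversal was in a member whose groups overlapped (log2 fold changes throughout). For Syt4, the GC correction gave 0.01, or 0.02 with the replicate block, and leaving out 1 sample -0.13 to 0.08. Syt7 ran from -0.08 to 0.14 with 1 sample left out, and was -0.09 in DESeq2 without Snhg11-ASO replicate 2. Vamp2 was -0.01 with upper-quartile factors, -0.0002 with no filter on low counts, -0.01 with the replicate block, -0.02 with the block and GC correction, -0.01 in limma-voom, -0.18 to 0.11 with 1 sample left out, and -0.18 in DESeq2 without Snhg11-ASO replicate 1. Cplx2 ran from -0.02 to 0.25 with 1 sample left out. The causes were not tested. The alternatives of Syt1, Stx1a and Cplx1 ran from -0.37 to -0.11, from -0.54 to -0.29 and from -0.29 to -0.19, with lowest adjusted p-values of 0.0747, 0.214 and 0.423.

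DESeq2 called 251 genes, and 346, 268 and 216 without Snhg11-ASO replicate 1, 2 and 3, where edgeR called 0, and 0 to 2 with 1 sample left out. Snhg11 passed in DESeq2 at -2.13, and at -2.56, -1.94 and -1.97 without Snhg11-ASO replicate 1, 2 and 3. Beside that value, edgeR gave -2.10 with the replicate block, and -2.56 to -1.83 with 1 sample left out. The replicate block changed no call of a member or of Snhg11 in edgeR. With the block, Syt1, Stx1a and Cplx1 were at -0.32, -0.42 and -0.24.

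With 1 sample left out, list medians ran from -0.28 to -0.14 for the other synaptotagmins (-0.15 in DESeq2 without Snhg11-ASO replicate 2), from -0.02 to 0.12 for the other SNAREs and complexins, from -0.11 to -0.02 for the assembly factors and from -0.03 to 0.04 for the trafficking SNAREs, and the synaptotagmins were at -0.14 with counts of both strands. The count of members lower at an unadjusted p under 0.05 ran from 2 to 3, under alternatives added after the data were seen, as were the values of list genes without Snhg11-ASO replicate 1. After the trend with span was removed there were 2 at an unadjusted p under 0.05. Each member had at least 1159 counts in every library, the fewest for Stx1a, whose values carry the largest counting error.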
